A study of Trichoderma reesei with 12 samples.

Results

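The genes TrB0212C, predicted to encode a transporter of neutral amino acids, and TrA2081W, predicted to encode a plasma membrane H+ ATPase, were followed in Trichoderma reesei. They are 2 of the 10879 genes with values, and both had enough reads for a test, as had 8895 genes in all. They were chosen because the study names them together, among genes it lists as regulated by rgs4 in light. The 4 groups were Δrgs4 in constant light (LL), the wild-type QM6a in LL, Δrgs4 in constant darkness (DD) and QM6a in DD, with 3 libraries each. All cultures were grown for 96 h in liquid minimal medium with cellulose, to which peptone was added for germination. Light and strain were thus the only stated differences, and the study's methods describe the libraries as biological triplicates. Δrgs4 lacks the gene of a regulator of G-protein signalling and carries the hygromycin resistance marker hph in its place. It was derived from QM6a, and a quantitative PCR in the study's methods found more than 1 copy of the marker cassette in it. The methods also report that its growth defect on glucose segregated with the deletion in progeny of a cross. The libraries used here are not from such progeny. Transcript values of 1 deletion strain cannot be told apart from those of other changes that transformation may have left in it. In bulk RNA from mycelium, a lower value can come from fewer cells of a kind or from less RNA per cell, and the data do not separate these.

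A plasma membrane H+ ATPase of fungi uses ATP to pump protons out of the cell, and the resulting gradient of charge and acidity across the membrane is the energy source for many carriers. Amino acid transporters of fungi commonly take up their substrate together with protons, so that they depend on this gradient. Regulators of G-protein signalling speed up the return of Gα proteins to their inactive form, and G-protein signalling in T. reesei is linked to nutrient and light signals.

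Transcript levels are given as normalized counts, the number of reads on a gene divided by the size factor of its library, and they were not corrected for gene length, so that levels of different genes are not compared. Each library held between 11.25 and 15.84 M reads on genes (M, mega). The deleted gene rgs4 (TrG0496W) had 4, 0 and 0 reads in Δrgs4 LL and between 1470 and 2040 reads in wild-type LL, and it had 5, 0 and 0 reads in Δrgs4 DD and between 1588 and 1710 reads in wild-type DD. Replicate 3 of Δrgs4 DD stood apart from its group, with a median distance per gene of 0.207 on the log2 scale from the mean of the other 2 replicates, against 0.1 to 0.155 in the other libraries. For TrB0212C and TrA2081W, calls and directions that change without this library are given with and without it. All 8895 genes entered 1 limma fit of log2(normalized counts + 2), and a gene is called up- or down-regulated at a log2 fold change beyond 0.58 in either direction and a Benjamini-Hochberg adjusted p under 0.05.

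TrB0212C was close to silent in light and abundant in darkness, in both strains. The levels were 110, 31.9 and 22.9 normalized counts in the 3 Δrgs4 LL libraries, against 4159, 4052 and 5559 in the Δrgs4 DD libraries. In the wild-type they were 8.56, 11.8 and 24.7 in LL, against 4010, 3668 and 3662 in DD. The highest LL library of either strain thus lay far below the lowest DD library. TrA2081W was also lower in light, but by little more than 2-fold, and it remained well expressed. Its levels were 3236, 2890 and 2101 normalized counts in Δrgs4 LL, against 7502, 6596 and 4163 in Δrgs4 DD. In the wild-type they were 1164, 1273 and 2105 in LL, against 2946, 3795 and 3850 in DD. Within each strain the LL libraries of TrA2081W did not overlap those of DD, yet the highest Δrgs4 LL library lay above the lowest wild-type DD library.

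**Figure D1:**
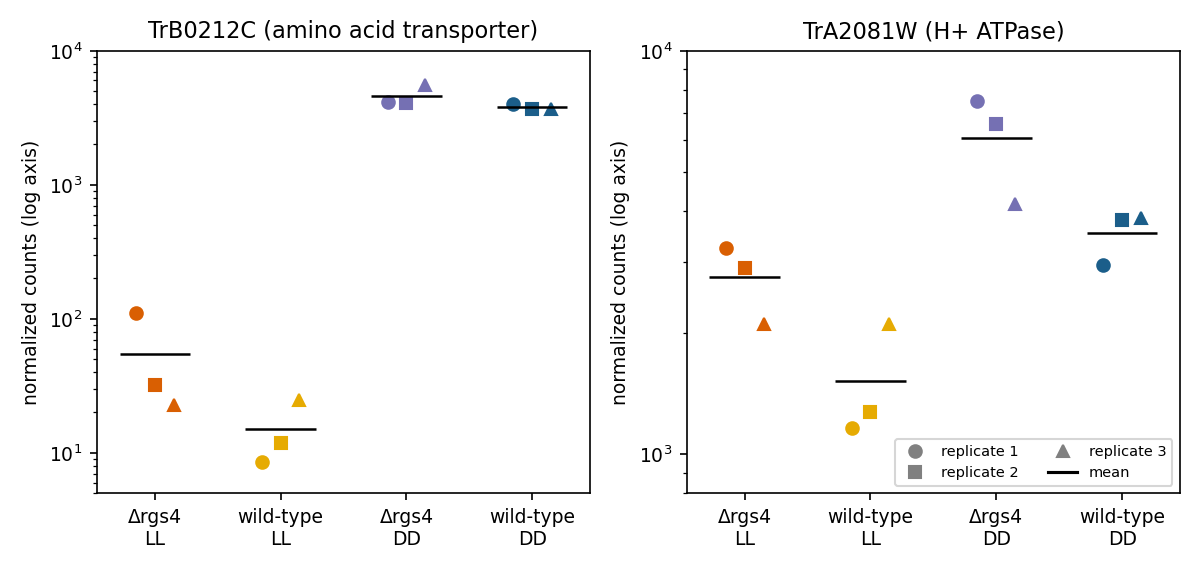
Normalized counts (log axis) of TrB0212C and TrA2081W in each of the 12 libraries, with groups in columns, symbols for the replicate number and a line at the mean of each group. TrB0212C had at most 110 normalized counts in LL and at least 3662 in DD, whereas TrA2081W lay between 1164 and 7502 in all libraries.

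Light against darkness asks whether either gene responds to light in each strain, and this comparison was not used to choose them. It shares the LL libraries with the contrast that the study had in view, so that it is not independent of the choice. TrB0212C fell in light in both strains. In Δrgs4 it averaged 55.1 ± 48.1 normalized counts in LL and 4590 ± 841 in DD (SD, n = 3 each), an 83.4-fold lower mean. The log2 fold change was -6.64 (95% interval -7.69 to -5.59; limma, Benjamini-Hochberg adjusted p = 5.23e-07). In the wild-type the averages were 15.02 ± 8.50 in LL and 3780 ± 199 in DD (SD, n = 3 each), a 252-fold lower mean. The log2 fold change was -7.91 (95% interval -8.96 to -6.86; limma, Benjamini-Hochberg adjusted p = 1.23e-07). Among all 8895 genes, ordered from the strongest decrease in light, TrB0212C stood at place 54 in Δrgs4 and at place 29 in the wild-type. On the log2-like values as deposited, the differences of TrB0212C were smaller, -4.52 in Δrgs4 and -4.69 in the wild-type, and limma called both.

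TrA2081W fell in light by similar amounts in both strains. In Δrgs4 it averaged 2742 ± 581 normalized counts in LL and 6087 ± 1727 in DD (SD, n = 3 each), a 2.22-fold lower mean. The log2 fold change was -1.13 (95% interval -1.71 to -0.55; limma, Benjamini-Hochberg adjusted p = 0.00335). In the wild-type it averaged 1514 ± 515 in LL and 3531 ± 507 in DD (SD, n = 3 each), a 2.33-fold lower mean. The log2 fold change was -1.26 (95% interval -1.84 to -0.68; limma, Benjamini-Hochberg adjusted p = 0.00158). A decrease of this size was common, since TrA2081W stood at place 1351 in Δrgs4 and at place 1233 in the wild-type in the same order.

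Both genes were thus down-regulated in light in both strains, where 22.0% of all tested genes were down-regulated in Δrgs4 and 21.6% in the wild-type. Libraries that did not overlap, with LL below DD, were seen for 32.5% of the genes in Δrgs4 and for 35.1% in the wild-type. For each gene in each strain, the exact permutation test (two-sided) had p = 0.1, the lowest that 3 against 3 libraries can reach. With light and darkness permuted within each strain and the strains tested jointly, the exact p was 0.005 for each gene, the smallest of the 400 arrangements. The direction and the call for light were the same without any 1 of the 12 libraries.

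**Figure D2:**
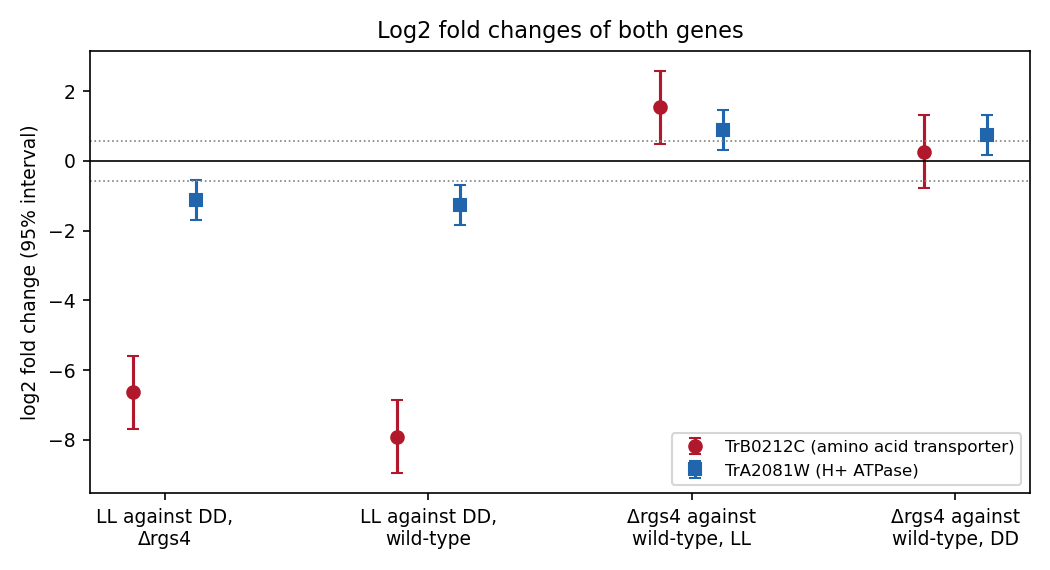
Log2 fold changes with 95% intervals of TrB0212C (circles) and TrA2081W (squares) for LL against DD in Δrgs4 and in the wild-type, and for Δrgs4 against the wild-type in LL and in DD. Dotted lines mark 0.58 in both directions. For LL against DD the values were -6.64 and -7.91 for TrB0212C and -1.13 and -1.26 for TrA2081W, and the intervals of both genes lay above 0 for Δrgs4 against the wild-type in LL.

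The comparison of Δrgs4 with the wild-type in LL asks whether rgs4 alters either gene in light. The study named the genes with this contrast of the same libraries in view, so that the values are a description and not independent evidence. Both genes had higher means in Δrgs4 LL, with overlapping libraries. TrB0212C averaged 55.1 ± 48.1 normalized counts in Δrgs4 LL and 15.02 ± 8.50 in wild-type LL (SD, n = 3 each), a ratio of 3.67. The log2 fold change was 1.54 (95% interval 0.49 to 2.58; limma, Benjamini-Hochberg adjusted p = 0.0673), the second highest of all genes. TrA2081W averaged 2742 ± 581 in Δrgs4 LL and 1514 ± 515 in wild-type LL (SD, n = 3 each), a ratio of 1.81. The log2 fold change was 0.88 (95% interval 0.31 to 1.46; limma, Benjamini-Hochberg adjusted p = 0.0594), at place 80 from the highest. Neither gene was called by limma, where 0.427% of the tested genes were up-regulated and 2.11% were called in either direction. The study reports both genes as up-regulated in Δrgs4 in light, from DESeq2 with the same thresholds for fold change and adjusted p. For each gene the exact permutation test (two-sided) had p = 0.2, where 0.1 is the smallest p this design allows.

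Few reads stand behind the light values of TrB0212C. The Δrgs4 LL libraries had 122, 28 and 25 reads, with exact Poisson intervals at 95% of 101 to 146, of 18.6 to 40.5 and of 16.2 to 36.9. The wild-type LL libraries had 7, 14 and 26 reads, with intervals of 2.81 to 14.4, of 7.65 to 23.5 and of 17.0 to 38.1. These intervals cover counting error only. Replicate 1 of Δrgs4 LL thus exceeded every other LL library by more than counting error, whereas the intervals of replicates 2 and 3 overlapped that of wild-type LL replicate 3. Without Δrgs4 LL replicate 1 the log2 fold change of TrB0212C was 0.89 in place of 1.54. Without Δrgs4 LL replicate 3 it was 1.97, and limma then called the gene, with an adjusted p of 0.0488 after Benjamini-Hochberg adjustment.

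TrA2081W had at least 952 reads in every library, so that counting error was small beside the spread between cultures. Its call in light also turned on single libraries. Without wild-type LL replicate 3, whose level of 2105 normalized counts reached that of the lowest Δrgs4 LL library, the log2 fold change was 1.15 and limma called the gene at a Benjamini-Hochberg adjusted p of 0.0366. Without Δrgs4 DD replicate 3, which enters this comparison only through the shared estimate of the spread, the log2 fold change of 0.88 was called by limma at a Benjamini-Hochberg adjusted p of 0.0259.

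In darkness, which was not the reason for choosing the genes, all 3 Δrgs4 libraries lay above all wild-type libraries for both genes. The same was seen for 9.15% of the tested genes. For TrB0212C the gap was narrow, from 4010 normalized counts in wild-type DD replicate 1 to 4052 in Δrgs4 DD replicate 2. The reads behind these values were 4237 and 3460. Their exact Poisson intervals at 95% were 4110 to 4367 and 3346 to 3577, which is wider than the gap. TrA2081W averaged 6087 ± 1727 normalized counts in Δrgs4 DD and 3531 ± 507 in wild-type DD (SD, n = 3 each), a ratio of 1.72. Its log2 fold change was 0.75 (95% interval 0.17 to 1.33), and limma did not call it, at an unadjusted p of 0.0155 and a Benjamini-Hochberg adjusted p of 0.271. Without Δrgs4 DD replicate 3, the lowest of its group for TrA2081W at 4163 normalized counts, the log2 fold change was 1.005 and limma called the gene, at a Benjamini-Hochberg adjusted p of 0.0411. TrB0212C averaged 4590 ± 841 in Δrgs4 DD and 3780 ± 199 in wild-type DD (SD, n = 3 each), a ratio of 1.21. Its log2 fold change of 0.27 had a 95% interval from -0.78 to 1.31 and was not called by limma, at a Benjamini-Hochberg adjusted p of 0.884. This interval takes its width from all 4 groups, and with the DD libraries alone it ran from -0.05 to 0.58, without a call.

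Limma called 0.0899% of all genes in either direction in darkness, all of them as lower in Δrgs4 and rgs4 itself among them, so that 0 genes were up-regulated. Without Δrgs4 DD replicate 3, limma called 154 genes as up- and 129 as down-regulated in Δrgs4, and limma-voom on the recovered reads of all libraries called 9 and 30. At an unadjusted p under 0.05, 588 genes were higher and 511 were lower in Δrgs4 DD. In DD the exact permutation test (two-sided) had p = 0.1 for each gene, again the smallest possible.

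**Figure D3:**
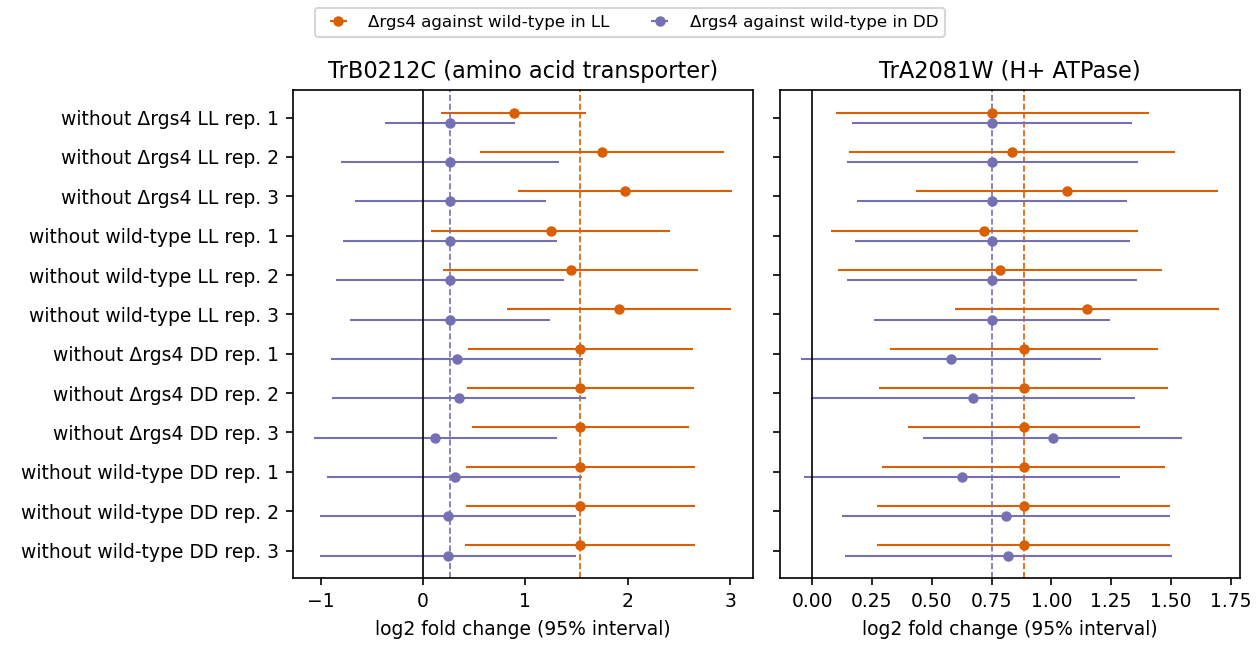
Log2 fold changes with 95% intervals for Δrgs4 against the wild-type in LL and in DD, each refitted without the library named at the left, for TrB0212C and TrA2081W. Dashed lines mark the values with all libraries. For LL the values lay between 0.89 and 1.97 for TrB0212C and between 0.72 and 1.15 for TrA2081W, and for DD between 0.12 and 0.35 and between 0.58 and 1.005.

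The difference between the strain effects in LL and in DD, the interaction, was not called for either gene, where limma with Benjamini-Hochberg adjustment called 0.708% of all genes. It was 1.27 for TrB0212C (95% interval -0.21 to 2.75; limma, Benjamini-Hochberg adjusted p = 0.359). For TrA2081W it was 0.13 (95% interval -0.69 to 0.95; limma, Benjamini-Hochberg adjusted p = 0.898). For TrA2081W the means in Δrgs4 were higher than in the wild-type by a ratio of 1.81 in LL and of 1.72 in DD. The intervals leave differences of either sign between light and darkness. The interaction includes the contrast in LL that the study had in view, so that its values are also a description.

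The order of the group means was the same for both genes. Δrgs4 DD was highest, followed by wild-type DD, Δrgs4 LL and wild-type LL. For TrB0212C the step from the DD groups to the LL groups was beyond the spread of the libraries, whereas neighbours within LL and within DD were not told apart by limma. For TrA2081W, Δrgs4 LL (2101 to 3236 normalized counts) and wild-type DD (2946 to 3850) overlapped.

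The spread between replicates differed between the genes. On the log2 scale the SD of TrB0212C was 1.15 in Δrgs4 LL, above that of 98.7% of the tested genes, and 0.69 in wild-type LL, above that of 96.2%. In Δrgs4 DD and wild-type DD it was 0.25 and 0.07, above that of 69.5% and 26.5% of the genes. These shares were not matched for the number of reads, and TrB0212C had few reads in LL. TrA2081W had an SD of 0.32 in Δrgs4 LL, 0.46 in wild-type LL, 0.45 in Δrgs4 DD and 0.22 in wild-type DD, above that of 73.1% to 91.3% of the genes. In LL the order of the replicates was the same for both genes, with replicate 1 highest in Δrgs4 and replicate 3 highest in the wild-type. In DD the orders differed, since replicate 3 of Δrgs4 was the highest for TrB0212C and the lowest for TrA2081W.

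The study's list of regulated genes holds 19 genes annotated as membrane transporters, permeases, porins or plasma membrane ATPases, the 2 described genes included. The authors chose them for their response to rgs4 in these libraries and not for light. The contrasts for light reuse those libraries, so that the counts for light are not independent of the choice. For LL against DD in Δrgs4, 12 of the 19 were down-regulated, 3 were up-regulated and 4 were not called, with a median log2 fold change of -1.07, against -0.01 for all genes. In the wild-type 11 were down-regulated, 4 were up-regulated and 4 were not called, with a median of -1.19, against -0.01. Without Δrgs4 DD replicate 3, 11 were down- and 5 up-regulated in the wild-type. Among the genes called as up-regulated, TrE0013C in both strains and TrE0016W in the wild-type had under 10 reads in every DD library and passed the filter through LL. Of all genes, 22.0% were down- and 14.2% up-regulated in Δrgs4, and 21.6% and 15.3% in the wild-type.

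Of the 5 amino acid transporter genes on this list, TrB0212C had by far the lowest level in light relative to darkness. TrA1398C, annotated as a permease for γ-aminobutyric acid (GABA), was not called in Δrgs4, with a log2 fold change of -0.27, and fell by 1.55 on the log2 scale in the wild-type. Its Δrgs4 LL libraries had 120, 414 and 138 normalized counts, all above the wild-type LL libraries at 64.8, 94.8 and 78.7. Libraries apart in this direction were seen for 17.9% of all tested genes. TrA1398C is on the study's list for Δrgs4 in light, so that this is a description. Limma did not call it for this contrast (Benjamini-Hochberg adjusted p = 0.0556) or for the interaction (Benjamini-Hochberg adjusted p = 0.232). Replicate 2 of Δrgs4 LL was the highest for TrA1398C, whereas replicate 1 was the highest for TrB0212C. TrB1799C, annotated as a Dip5-type permease, a family that takes up acidic amino acids in yeast, rose in light in Δrgs4 by 1.46 on the log2 scale and had a log2 fold change of 0.03 in the wild-type. TrA0392C, annotated as a transmembrane amino acid transporter, fell by 0.64 in light in Δrgs4, a call lost without replicate 1 of Δrgs4 LL, and had a log2 fold change of -0.09 in the wild-type. The interaction of TrA0392C was not called (limma, Benjamini-Hochberg adjusted p = 0.1145). TrB1799C is on the study's list for Δrgs4 in darkness and TrA0392C for Δrgs4 in light, so that their differences between strains are descriptions. TrC0132C, also annotated as a GABA permease, was not called in either strain, with values of -0.45 in Δrgs4 and -0.14 in the wild-type.

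Among the other genes of the list, TrA0967C came closest to TrB0212C in its response to light. It is annotated as an H+/oligopeptide transporter, a carrier that takes up short peptides with protons. TrA0967C averaged 32.6 ± 6.31 normalized counts in Δrgs4 LL and 2132 ± 555 in Δrgs4 DD (SD, n = 3 each), which is a log2 fold change of -5.93. In the wild-type it averaged 24.1 ± 11.9 in LL and 3765 ± 473 in DD (SD, n = 3 each), which is a log2 fold change of -7.27. The ABC transporter gene TrG0838W followed, with -4.42 in Δrgs4 and -4.72 in the wild-type. All 5 ABC and all 4 MFS transporter genes on the study's list were called for light in both strains, and 4 and 3 of them were down-regulated. Of all tested genes, 22.0% were down- and 14.2% up-regulated in light in Δrgs4, and 21.6% and 15.3% in the wild-type.

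**Figure D4:**
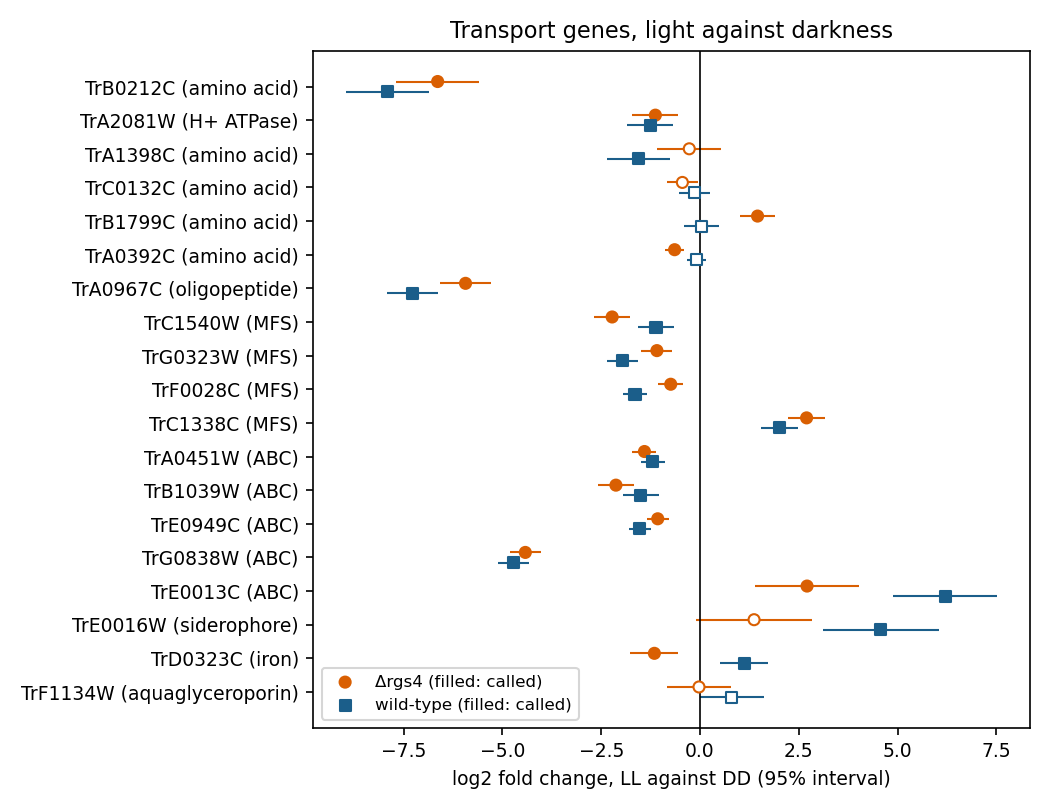
Log2 fold changes with 95% intervals for LL against DD of the 19 transport genes in Δrgs4 (circles) and in the wild-type (squares), with the class of each gene in parentheses and filled symbols for called genes. TrB0212C and TrA0967C had the lowest values, -6.64 and -5.93 in Δrgs4 and -7.91 and -7.27 in the wild-type.

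For Δrgs4 against the wild-type, which the authors used to choose the list, limma called 7 of the 19 genes in LL and 1 in DD. Of all genes, 0.427% were up- and 1.69% down-regulated in LL, and 0.0899% were called in DD. In LL the up-regulated genes were TrC0132C (0.63), TrC1338C (0.80) and TrG0838W (0.89), and the down-regulated genes were TrA0392C (-0.71), TrD0323C (-1.80), TrE0016W (-2.85) and TrE0013C (-2.93), each with its log2 fold change. The calls of TrA0392C and TrD0323C held when any 1 of the 12 libraries was left out, whereas those of TrG0838W, TrE0013C, TrE0016W, TrC1338C and TrC0132C were lost in 2, 3, 4, 9 and 10 of the 12 cases. In DD the only called gene was TrB1799C, with 390, 403 and 625 normalized counts in Δrgs4 and 1410, 1206 and 1964 in the wild-type, a log2 fold change of -1.69 (limma, Benjamini-Hochberg adjusted p = 0.0161). The strains did not overlap, but the call of TrB1799C was lost without replicate 1 or 2 of Δrgs4 DD, without replicate 1 or 3 of wild-type DD and without replicate 1 of wild-type LL, with values from -1.91 to -1.50 over all libraries left out. TrB0212C and TrA2081W were among the 12 genes not called in LL and the 18 not called in DD.

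The 3 genes on each side, by the number in the identifier, were examined for both genes. None of the neighbours of TrB0212C was called as down-regulated in light, against 22.0% of all tested genes in Δrgs4 and 21.6% in the wild-type. TrB0209C rose strongly, with 6471 ± 3788 normalized counts in Δrgs4 LL and 154 ± 122 in Δrgs4 DD (SD, n = 3 each), which is a log2 fold change of 5.66. In the wild-type TrB0209C had 7814 ± 1321 in LL and 157 ± 131 in DD (SD, n = 3 each), which is a log2 fold change of 5.92. TrB0213W, next to TrB0212C, rose by 0.65 in Δrgs4 and by 0.64 in the wild-type on the log2 scale. All LL libraries of TrB0210C lay below the DD libraries of the same strain, with log2 fold changes of -0.56 in Δrgs4 and -0.54 in the wild-type, and missed the call through the threshold of 0.58 alone. The other 3 neighbours were not called, with log2 fold changes from -0.33 to 0.36.

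The neighbours of TrA2081W had few reads. TrA2078C, TrA2082C and TrA2083W had at most 12 reads in any LL library and passed the filter on reads through the DD libraries, so that a difference in light could only be a decrease. With that limit, the 3 genes were called as lower in light in both strains, with log2 fold changes of -2.09, -2.19 and -1.98 in Δrgs4 and of -2.56, -3.15 and -1.96 in the wild-type. Over all tested genes, 22.0% were called as lower in Δrgs4 and 21.6% in the wild-type. TrA2079C was not called in Δrgs4, with a log2 fold change of -0.88, and fell in the wild-type, with -1.69. In Δrgs4 its LL libraries also lay below those of DD, as for 32.5% of all tested genes. The interaction of TrA2079C was not called (limma, Benjamini-Hochberg adjusted p = 0.5475). The 4 genes averaged between 3.70 and 28.5 normalized counts in the LL groups and between 18.9 and 79.9 in the DD groups. TrA2080C and TrA2084C had too few reads for a test. For Δrgs4 against the wild-type, none of the 10 tested neighbours was called in LL or in DD. Calls were rare in this comparison, at 2.11% of all tested genes in LL and 0.0899% in DD.

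**Figure D5:**
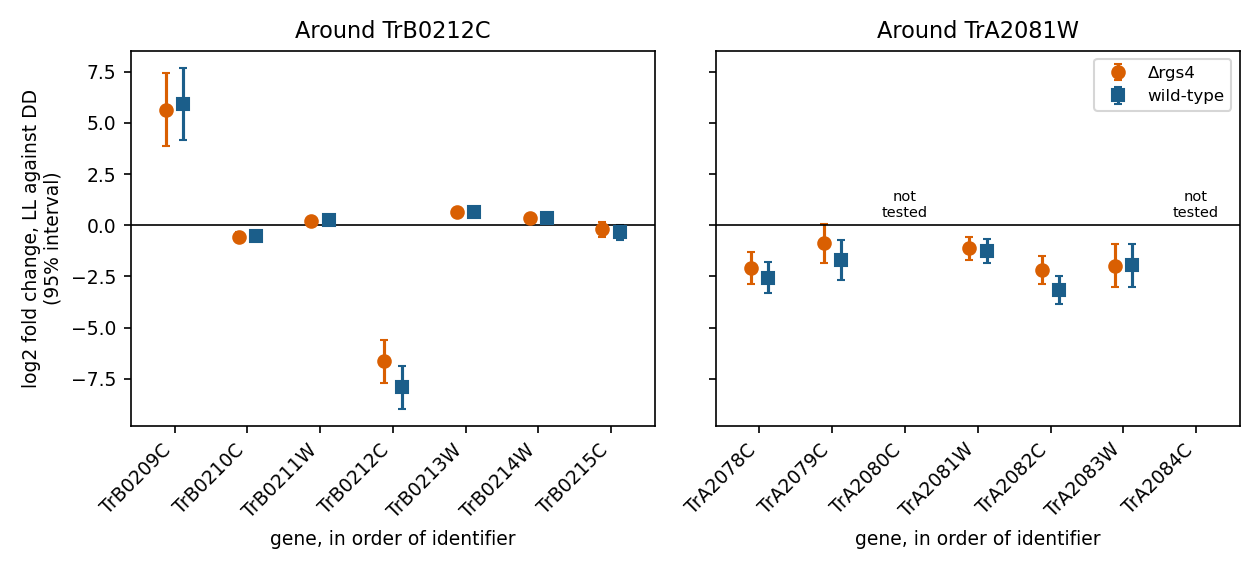
Log2 fold changes with 95% intervals for LL against DD in Δrgs4 (circles) and in the wild-type (squares) of TrB0212C, TrA2081W and the 3 genes on each side of them in the order of the identifiers. TrB0212C lay at -6.64 and -7.91 and TrB0209C at 5.66 and 5.92, whereas all tested genes around TrA2081W lay below 0.

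Finally, the genes most like each of the 2 in their values over the 12 libraries were determined by Pearson's r of log2(normalized counts + 2). For TrB0212C these were TrD0136W (r = 0.995), TrG0838W (r = 0.995) and TrF0081W (r = 0.992). Such values were frequent, with 1235 of 8894 genes above 0.9, since the 12 libraries share the large difference between LL and DD. For TrA2081W these were TrC0831W (r = 0.981), TrD0037W (r = 0.966) and TrG0980W (r = 0.951), and 64 genes lay above 0.9. After the group means were subtracted, so that only differences between replicates remained, the most similar genes to TrB0212C were TrE0180C (r = 0.933), TrA0644W (r = 0.928) and again TrG0838W (r = 0.923), and 4 genes lay above 0.9. For TrA2081W they were TrF1101C (r = 0.943), TrC1551C (r = 0.942) and TrD0036W (r = 0.929), which is numbered next to TrD0037W, and 10 genes lay above 0.9. These correlations are descriptions over libraries that share their size factors. TrE0180C, TrF1101C and TrC1551C had at most 14 reads in any LL library, so that their deviations in LL rest on few reads.

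TrG0838W, annotated as an MRP-type ABC transporter, a class that exports conjugated compounds, was the one gene among the 3 most like TrB0212C by both measures. It had 421, 292 and 252 normalized counts in Δrgs4 LL, against 149, 158 and 205 in wild-type LL. The strains did not overlap, which was seen with Δrgs4 above the wild-type in 17.9% of the tested genes. TrG0838W is itself on the study's list for Δrgs4 in light, so that its log2 fold change of 0.89 in LL is a description of a gene chosen on this contrast. Without replicate 1 or replicate 2 of wild-type LL it was not called.

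The study names TrA0392C and TrB0953C, a ribosomal protein gene, together with the 2 genes. TrB0953C had a log2 fold change of -0.07 in light in Δrgs4 and rose by 0.70 in the wild-type. In LL, TrB0953C averaged 5240 ± 185 normalized counts in Δrgs4 and 7957 ± 445 in the wild-type (SD, n = 3 each). TrA0390C is a gene that the study gives elsewhere with the protein number of TrA0392C. Transcript levels of TrA0390C rose in light by 1.21 in Δrgs4 and by 1.28 in the wild-type on the log2 scale.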

How the data were processed

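RNA was depleted of ribosomal RNA and sequenced in paired-end mode from 12 cultures, 3 for each strain and light condition. Per the study's methods, reads were trimmed by the authors, mapped to the QM6a genome with HISAT2, assigned to genes with featureCounts and tested with DESeq2. For the strand setting of the counting, the sources used here give nothing. Values of genes that overlap are therefore uncertain. The file used holds values on a log2-like scale, as the authors deposited them, from the variance stabilizing function of DESeq2, for 10879 genes in 12 libraries. A deposited table of raw counts has 12 columns whose names pair with no sample, and it was not used.

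Genes without reads have the lowest value in the file, 6.74. With this value the function was inverted, and reads were recovered from the smallest difference between values in a library. Within a tolerance of 0.01, 99.991% to 100% of the values of a library came out whole. Reads ranged from 11.25 to 15.84 M per library. Since the steps yielded normalized counts on the scale of the authors' size factors, limma 3.58.1 in R 4.3.3 was fitted with a trended variance to log2(normalized counts + 2), with 4 group means and all 12 libraries. The pseudocount of 2 understates the change of genes with few reads. A gene was tested if 3 or more libraries had 10 or more reads on it, which left 8895 genes, with Benjamini-Hochberg adjustment over all of them. The steps were tested on simulated data. Tables and plots were made with Python 3.11.15, pandas 2.3.3, numpy 2.4.6 and matplotlib 3.10.9.

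The 2 genes, the transport list and the thresholds were chosen with earlier results of these data known. Named genes are the 2 genes, rgs4, the 3 genes on each side by number, the 19 transport genes of the study's list, TrA0390C and TrB0953C, which the study also names, and the 3 most similar genes by each of the correlations. Alternatives were other normalization factors, pseudocounts, filters, the deposited values, subsets of libraries, the replicate number as a block, and leaving out each library in turn. The alternatives for named genes other than the 2 were run after the data were seen. Groups of 3 libraries were too small for an outlier test.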

Additional observations from a re-analysis of the deposited data

Results flagged for a closer look

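The effect of rgs4 differed between light and darkness for 3 of the named genes other than TrB0212C and TrA2081W, by the interaction in limma with Benjamini-Hochberg adjustment. For TrB1799C, the Dip5-type amino acid permease gene, the log2 fold change of Δrgs4 against the wild-type was -0.27 in LL and -1.69 in DD, an interaction of 1.42 (limma, Benjamini-Hochberg adjusted p = 0.0445). For TrD0323C, an iron transporter gene, the values were -1.80 in LL and 0.47 in DD, an interaction of -2.27 (limma, Benjamini-Hochberg adjusted p = 0.0378). For TrB0953C, which the study names beside the 2 genes, the values were -0.60 in LL and 0.16 in DD, an interaction of -0.76 (limma, Benjamini-Hochberg adjusted p = 0.0142). The calls of TrB1799C and TrD0323C for the interaction were lost in 11 and 10 of the 12 fits that left out 1 library, and that of TrB0953C in 1, without Δrgs4 LL replicate 3. With the replicate number as a block none of the 3 was called, at Benjamini-Hochberg adjusted p of 0.0689, 0.0689 and 0.0559 (limma). The authors chose these genes on the same libraries. This limits what their tests can add.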

How the results depend on the processing

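Over the 10 log2 fold changes of TrB0212C and TrA2081W, 227 of 233 values under alternatives kept direction and call. The 4 that gained a call and the 2 that changed sign each came from leaving out 1 library, and the cause was not tested. Without 1 library, the values ranged from 0.58 to 1.005 for TrA2081W and from 0.12 to 0.35 for TrB0212C in Δrgs4 against the wild-type in DD. In LL they ranged from 0.72 to 1.15 for TrA2081W and from 0.89 to 1.97 for TrB0212C. The interaction of TrA2081W ranged from -0.12, without Δrgs4 DD replicate 3, to 0.40, and was -0.03 without wild-type LL replicate 1. That of TrB0212C ranged from 0.62 to 1.71. On the deposited values, TrB0212C had 0.43 for Δrgs4 against the wild-type in LL and 0.17 for the interaction, without a call. With at least 10 reads required in every library, TrB0212C was not tested, since wild-type LL replicate 1 had 7 reads. The interaction could not be fitted on fewer than 4 groups. Between 12 and 16 transport genes were called for light in the wild-type, with 15 in the fit as chosen. The 12 came from requiring at least 10 reads in every library, which left 16 of the 19 for a test. The number of all genes called ranged from 35 to 795 for Δrgs4 against the wild-type in LL, with 188 in the fit as chosen, and from 1 to 283 in DD, with 8. It was 283 without Δrgs4 DD replicate 3. For the interaction it ranged from 4 to 192, with 63, and for light from 1988 to 5262 in Δrgs4, with 3221, and from 2013 to 5259 in the wild-type, with 3280.

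Replicate numbers did not pair the libraries, with correlations of same-numbered deviations from -0.41 to 0.35. With the replicate number as a block, no call of TrB0212C or TrA2081W changed, and the adjusted p in LL was 0.101 and 0.0992 (limma, Benjamini-Hochberg). The block left 3 calls over all genes in DD and 4 for the interaction, against 8 and 63.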
